A study of Mus musculus with 32 samples.

Results

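The genes described are Myc, Mycn, Max, Mga, E2f6, L3mbtl2 and Pcgf6, which encode MYC-type transcription factors, their partner MAX and subunits of a Polycomb complex that holds germline genes silent in embryonic cells. They were chosen by name, as the probe sets whose platform annotation gives exactly 1 symbol equal to 1 of these names, with the probe set of highest mean over all arrays standing for each gene. All 7 were found among 18193 genes measured, and all 7 had a mean above the dim threshold (log2 4.05, the 40th percentile of the levels) in 16 of 16 groups of arrays.

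MYC and MYCN are basic helix-loop-helix leucine zipper proteins that bind E-box sequences as dimers with MAX and raise transcription of genes for growth and ribosome biogenesis. MGA is another MAX partner, and with MAX it recruits the variant Polycomb complex PRC1.6, whose PCGF6 and L3MBTL2 subunits are found with E2F6, a repressing member of the E2F family. In pluripotent cells PRC1.6 sits on the promoters of meiotic and germ cell genes and keeps them low, while MYC-type proteins compete with MGA for MAX.

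The arrays (Affymetrix, mouse) profiled cells on the way from embryonic stem cells (ESCs) to primordial germ cell-like cells (PGCLCs), 32 arrays in 16 groups of 2. ESCs kept in 2i+LIF stand for the naive state, epiblast-like cells (EpiLCs) are made from them, and PGCLCs are induced from EpiLCs either by cytokines (Ck: BMP4, BMP8A, SCF, LIF and EGF) or by forced expression of germ cell factors with doxycycline (Dox). The series' design text calls the arrays biological duplicates. No label names separate cultures, so every p-value measures only the spread between these arrays.

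The 22 new arrays came from male C57BL/6 and 129 cells that all carry the reporters Blimp1-mVenus and stella-ECFP and the Rosa26-rtTA activator. Factor lines add tetO-driven piggyBac transgenes, of which B is Avi-Blimp1, P14 is 3xFLAG-Prdm14 and A is V5-Tfap2c. Groups with factors were BP14A at day 2 and day 4, and BP14, P14A and P14 at day 2, all made from aggregated EpiLCs given Dox. The parental clone, which has the reporters and Rosa26-rtTA but no factor transgene, gave the Dox-treated day 2 control, the EpiLCs at 36 h and the Ck-PGCLCs at day 2 and day 4. BP14A ESCs in 2i+LIF, and BP14A ESCs after 2 days of Dox sorted for stella-ECFP, complete the new arrays. The 10 earlier arrays were 2i+LIF ESCs, EpiLCs at 48 h and Ck-PGCLCs at day 6 from male C57BL/6 cells with Blimp1-mVenus and stella-ECFP, epiblasts at E5.5 from C57BL/6 embryos, and stella-EGFP PGCs at E9.5 from C57BL/6 embryos, the embryos' sex being unknown. Each of the 25 comparisons of groups stays in 1 set of arrays, while ranges, ranks and correlations over all 16 groups, and 1 test of a difference between rises, span both. Each factor line is a clone of its own, so factor and clone cannot be told apart in a comparison with the parental clone, and EpiLCs against BP14A ESCs also compare clones.

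Array quality and identity were checked before the members were read. The correlation between the arrays of a group ran from 0.9663 to 0.9860 and no pair was identical. Markers followed the labels: the mean of 6 naive markers was 10.81 to 11.18 in the 2i+LIF ESC arrays and 5.73 to 6.65 in EpiLC and epiblast arrays, and the mean of 6 germ cell markers was 5.43 and 5.65 in EpiLCs at 36 h against 11.44 and 11.71 in PGCs. In PGCs, 5 of 5 blood and endothelium markers were above the dim threshold, with array means of 8.65 and 8.39. The count was also 5 of 5, at lower means, in Ck-PGCLCs at day 6 (6.84 and 7.01) and day 4 (6.03 and 5.92). The same count held in BP14A (day 2 and day 4), P14A and P14 cells, with array means of 4.87 to 5.54. The 5′ to 3′ difference of Gapdh, a measure of RNA or cDNA completeness, was below log2 -3 on 4 arrays: both sides of that line occur within BP14A day 4 (-4.66 and -2.99), BP14 (-4.07 and -0.37), 36 h EpiLCs (-3.03 and -0.42) and Dox-treated ESCs (-2.14 and -3.13). In bulk RNA, fewer cells of a type and less RNA per cell cannot be told apart.

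The DNA these proteins read is shown first, because the germline genes described further on were listed as genes held by MGA, MAX, E2F6 or PCGF6. Promoters of 4 of them are printed 5′ to 3′ on the gene's strand from RefSeq (build GRCm38.p6), each ending upstream of the start site. Capitals mark the E-box CACGTG, which reads the same on both strands, and the E2F-type site GCGGGAA, which was searched on both strands; the motifs do not overlap each other.
Ddx4 (germ cell RNA helicase), chr13:112652311-112652460, minus strand: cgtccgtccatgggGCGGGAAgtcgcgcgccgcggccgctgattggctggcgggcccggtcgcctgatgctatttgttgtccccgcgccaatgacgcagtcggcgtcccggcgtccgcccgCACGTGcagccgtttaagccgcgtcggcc
Hormad1 (meiotic chromosome axis), chr3:95559567-95559676, plus strand: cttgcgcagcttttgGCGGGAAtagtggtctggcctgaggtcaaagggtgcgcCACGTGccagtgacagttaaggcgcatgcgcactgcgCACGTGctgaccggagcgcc
Sycp3 (synaptonemal complex), chr10:88459427-88459556, plus strand: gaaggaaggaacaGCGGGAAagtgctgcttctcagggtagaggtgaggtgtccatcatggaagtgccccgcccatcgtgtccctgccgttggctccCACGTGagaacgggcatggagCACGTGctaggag
Slc25a31 (germ cell ADP/ATP carrier), chr3:40708721-40708820, plus strand: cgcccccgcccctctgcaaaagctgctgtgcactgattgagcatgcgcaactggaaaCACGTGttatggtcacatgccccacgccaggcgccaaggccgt

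In Ddx4, counting from the start site, the E2F-type site began at position -136 and the E-box at -29. Hormad1 and Sycp3 each held 1 E2F-type site and 2 E-boxes in the stretch shown. Of 22 listed germline genes with a RefSeq promoter (250 bases before to 50 after the start), 12 held CACGTG, 8 held GCGGGAA and 5 held both. Over all genes with a promoter, 8.09% held CACGTG, 5.29% held GCGGGAA and 0.514% held both. CACGTG was also held by 7 of 13 other PRC1 subunit genes and 4 of 9 other MAX network genes. Among MYC target genes it was 8 of 19, among other PRC1.6 subunit genes 2 of 10 and among E2F family genes 1 of 5. GCGGGAA was held by 1 of 13, 1 of 9, 3 of 19, 0 of 10 and 2 of 5 genes in the same order. Both motifs were held by 1 of 19 MYC target genes and by no gene of the other lists. The germline list was drawn from genes known to be bound by these proteins, so its shares are a description. Among the members themselves, 6 had a promoter entry (Mycn, Max, Mga, E2f6, L3mbtl2 and Pcgf6): Max held CACGTG and none held GCGGGAA.

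**Figure D1:**
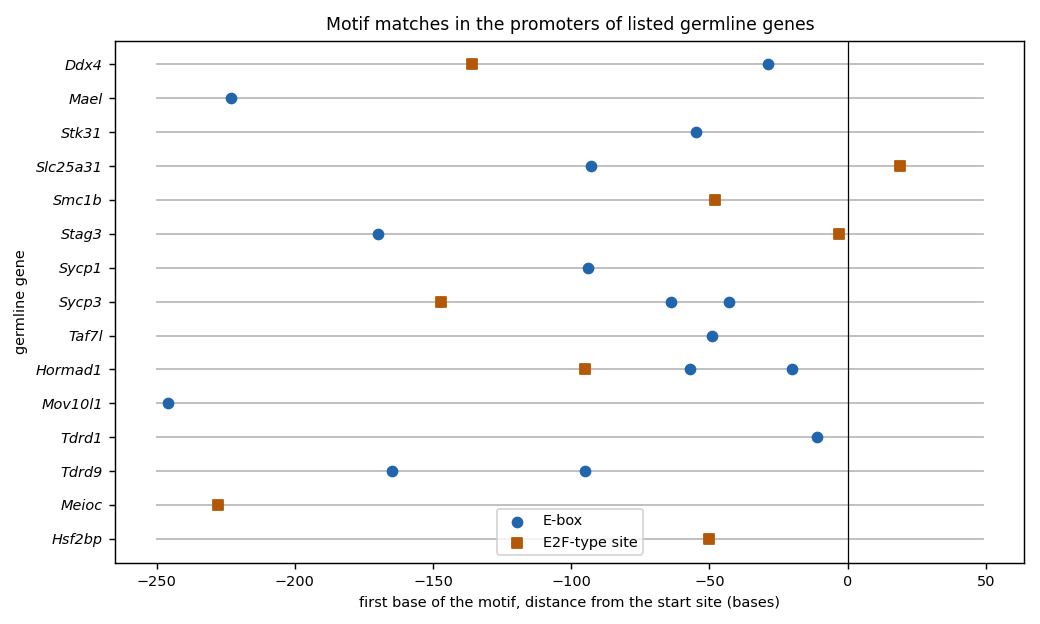
Distance in bases from the transcription start site (x axis) of each E-box (CACGTG) and E2F-type site (GCGGGAA) in the promoters of 15 listed germline genes, 1 line per gene. Ddx4, Hormad1, Sycp3, Slc25a31 and Stag3 carry both kinds of motif.

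Across the 16 groups the 7 genes moved by very different amounts. The distance between the highest and the lowest group mean was log2 3.66 for Myc, 2.53 for Mycn, 2.08 for Mga, 1.20 for E2f6, 1.17 for L3mbtl2, 1.14 for Max and 0.90 for Pcgf6, where the median over 15497 tested genes was 1.37. Myc thus varied more than 91.2% of tested genes and Pcgf6 more than 22.1%. A change was called where limma's Benjamini-Hochberg adjusted p was under 0.05 and the change at least 2-fold. Over 25 comparisons Myc was called in 10 (3 higher, 7 lower), Mycn in 7 (6 higher, 1 lower), Mga in 5 (2 higher, 3 lower) and Max in 3 (all higher). E2f6, L3mbtl2 and Pcgf6 were called in 0 of 25, because their differences that passed the adjusted p stayed under 2-fold. Levels are on the log2 scale and are read within a gene only, since probe sets differ in brightness.

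**Figure D2:**
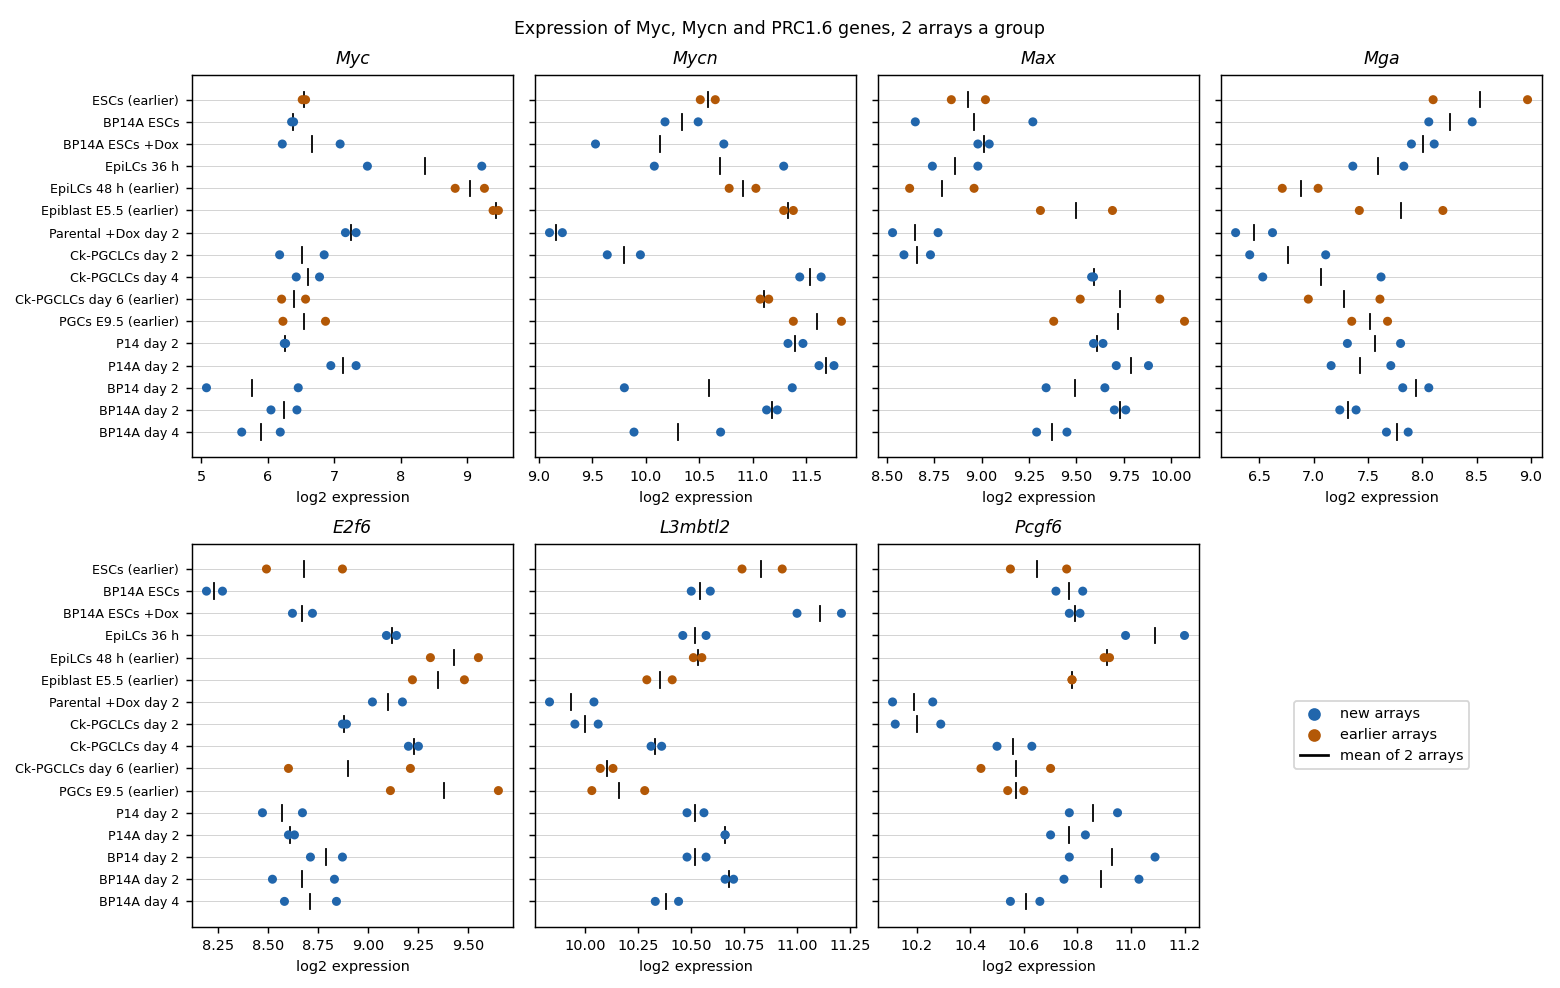
Log2 level (x axis, scaled separately for each gene) of each of the 7 genes on every array, by group (y axis), with blue points for new arrays, orange points for earlier arrays and a black line for the group mean of 2 arrays. Myc peaks in EpiLCs and epiblast, while Mycn, Max, Mga, L3mbtl2 and Pcgf6 have their lowest mean in the Dox-treated parental cells.

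Myc, the growth-promoting activator, was high in the primed epiblast state and low on both sides of it. On the new arrays Myc read 6.36 and 6.39 in BP14A ESCs and 7.50 and 9.22 in EpiLCs at 36 h. On the earlier arrays it read 6.52 and 6.57 in ESCs, 8.82 and 9.26 in EpiLCs at 48 h, and 9.39 and 9.47 in epiblast at E5.5. The ESC arrays lay below all EpiLC and epiblast arrays without overlap. Myc rose by log2 2.50 ± 0.46 (SE, n = 2 a group, 5.65-fold, limma adjusted p = 0.000383) in 48 h EpiLCs and by 2.88 ± 0.46 (7.37-fold, adjusted p = 6.46e-05) in epiblast, both against ESCs. EpiLCs at 48 h and epiblast differed by -0.38 (95% confidence interval -1.34 to 0.58). In the new arrays the rise was 1.98 (3.96-fold, adjusted p = 0.0029), but this call rests on the second EpiLC array: without it the difference was 1.13 (adjusted p = 0.097). The rise on the new and the earlier arrays differed by -0.51 (interval -1.87 to 0.84), and for this difference 0 of 7 members were called (0.916% of genes).

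Of the 7 members, 1 was called in 36 h EpiLCs against BP14A ESCs, where 14.6% of tested genes were called. The count was 2 of 7 in 48 h EpiLCs (Myc higher, Mga lower; 14.4% of genes) and 1 of 7 in epiblast (17.0%). A count of 1 in 7 is close to these shares.

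In Ck-PGCLCs, BP14A cells and PGCs Myc read between 5.61 and 6.87, beside 6.36 to 6.57 in untreated ESCs. Ck-PGCLCs read 6.18 and 6.85 at day 2, 6.78 and 6.43 at day 4, and 6.21 and 6.57 at day 6, and PGCs 6.87 and 6.23. BP14A cells read 6.05 and 6.44 at day 2 and 5.61 and 6.19 at day 4. All of these arrays lay below every EpiLC and epiblast array. Myc fell by 2.65 in day 6 Ck-PGCLCs against 48 h EpiLCs (6.29-fold, limma adjusted p = 0.000151) and by 2.88 in PGCs against epiblast (7.34-fold, adjusted p = 7.58e-05). PGCs and ESCs differed by 0.01 (interval -0.95 to 0.97). Against 36 h EpiLCs, Myc fell by 2.46 in BP14A day 4 cells (adjusted p = 0.000491), by 2.12 in BP14A day 2 cells (adjusted p = 0.00217), by 1.85 in day 2 Ck-PGCLCs (adjusted p = 0.00506) and by 1.75 in day 4 Ck-PGCLCs (adjusted p = 0.00662). Without the second EpiLC array, the last 3 calls ended, at -1.26 (adjusted p = 0.0771), -0.99 (0.152) and -0.90 (0.179), and the day 4 BP14A call held. The call in day 2 Ck-PGCLCs also ended without their first array (-1.51, adjusted p = 0.0711), and that in day 4 Ck-PGCLCs without their second (-1.58, adjusted p = 0.059).

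Myc was the 1 member of 7 called in each of these comparisons with EpiLCs or epiblast. The shares of tested genes called lower there were 6.06% for Ck-PGCLCs at day 2, 7.40% at day 4 and 9.38% at day 6, 5.36% and 5.90% for BP14A at day 2 and day 4, and 6.90% for PGCs. These shares cover falls only, the direction of Myc. Shares beside other member counts cover both directions, so the shares here are the smaller kind.

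Among day 2 cells, Myc did not follow the germ cell factors as a group. Dox-treated parental cells read 7.17 and 7.33, P14A cells 6.95 and 7.33, P14 cells 6.27 and 6.25, and BP14 cells 5.08 and 6.46. The P14A arrays overlapped the parental ones, and the P14, BP14 and BP14A arrays lay below them. Myc fell by 1.48 in BP14 cells against parental cells (limma adjusted p = 0.025). That call ended without the first BP14 array (-0.79, adjusted p = 0.381), which has the low Gapdh 5′ to 3′ difference, and without either parental array (-1.56, adjusted p = 0.0822, and -1.40, adjusted p = 0.122). The difference was -1.01 (interval -1.97 to -0.04, adjusted p = 0.131) in BP14A cells, -0.99 (-1.95 to -0.03, adjusted p = 0.146) in P14 cells and -0.11 (-1.07 to 0.85) in P14A cells.

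**Figure D3:**
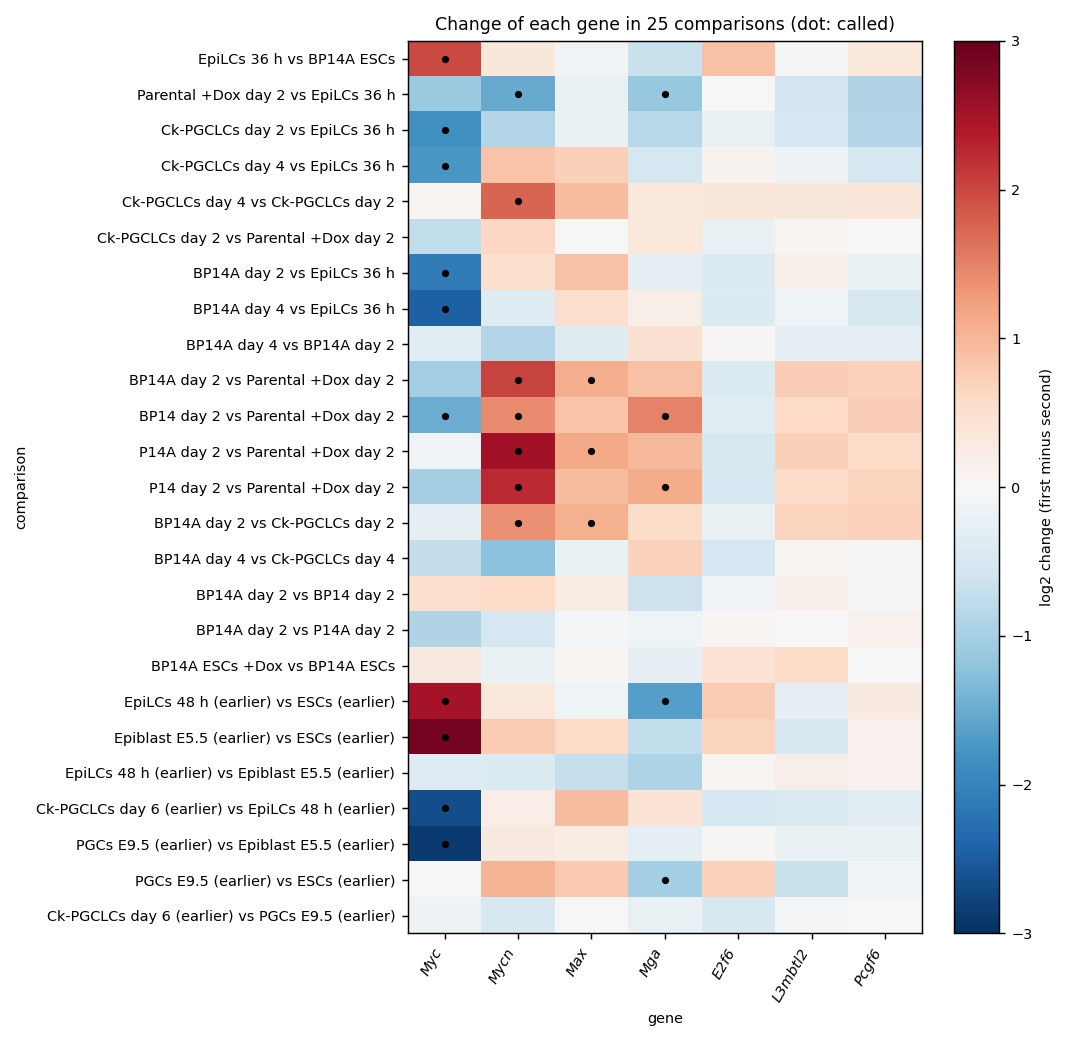
Log2 change of the 7 genes in 25 comparisons, as a colour scale, with a dot where the change was called (limma adjusted p under 0.05 and at least 2-fold). Dots for Myc fall mainly in comparisons with ESCs, EpiLCs or epiblast, and dots for Mycn mainly in comparisons with the Dox-treated parental cells or day 2 Ck-PGCLCs.

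Mycn, the MYC paralogue of early embryonic and progenitor cells, followed another course. It read 10.65 and 10.51 in the earlier ESCs, 11.03 and 10.78 in 48 h EpiLCs and 11.29 and 11.38 in epiblast, and none of the differences between these groups was called. Mycn was lowest in the Dox-treated parental cells, at 9.22 and 9.10, followed by day 2 Ck-PGCLCs, at 9.64 and 9.95. Factor-expressing day 2 cells read 11.13 and 11.23 (BP14A), 9.80 and 11.37 (BP14), 11.62 and 11.76 (P14A) and 11.33 and 11.47 (P14). Every factor array was above both parental arrays, and the first BP14 array stood apart from the other factor arrays. Against parental cells Mycn rose by 2.53 ± 0.43 in P14A (5.76-fold, limma adjusted p = 0.000199), by 2.24 in P14 (4.71-fold, adjusted p = 0.000658) and by 2.02 in BP14A (4.05-fold, adjusted p = 0.00158). These 3 calls held without any single array. Mycn also rose by 1.42 in BP14 (2.68-fold, adjusted p = 0.0223). That call ended without the second BP14 array (0.63, adjusted p = 0.329) and without either parental array (1.48, adjusted p = 0.0786, and 1.36, adjusted p = 0.11). The 4 comparisons share the 2 parental arrays, so they are not independent of each other. Mycn has 2 dim probe sets besides the one used (mean levels 4.32 and 1.45, against 10.77), and with the mean of all 3 the changes were 0.14 to 0.95 and no Mycn call remained.

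Along the cytokine route Mycn rose from day 2 to day 4, while along the BP14A route no rise was called. From 36 h EpiLCs (10.08 and 11.29) it fell by 1.52 to the Dox-treated parental cells (limma adjusted p = 0.0142). This call ended without the first parental array (-1.58, adjusted p = 0.0594), the second (-1.46, adjusted p = 0.078) or the second EpiLC array (-0.91, adjusted p = 0.213). The difference from EpiLCs to day 2 Ck-PGCLCs was -0.89 (interval -1.79 to 0.02). Ck-PGCLCs read 11.64 and 11.44 at day 4, above both day 2 arrays, a rise of 1.74 (3.34-fold, adjusted p = 0.00595). Without the first day 2 array or the first day 4 array it was 1.58 (adjusted p = 0.0596) or 1.64 (adjusted p = 0.0512). Day 6 Ck-PGCLCs (11.15 and 11.07) and PGCs (11.38 and 11.83) also read above 11.

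BP14A cells already stood 1.38 above day 2 Ck-PGCLCs at day 2 (2.61-fold, adjusted p = 0.0266 by limma), with no overlap of arrays. Leaving out any 1 of the 4 arrays ended this call, at 1.23 (adjusted p = 0.155) to 1.54 (adjusted p = 0.0659). At day 4 BP14A cells read 9.89 and 10.70, a difference of -0.88 from day 2 (interval -1.79 to 0.02). The day 2 to day 4 change differed between the BP14A and cytokine routes by -2.62 ± 0.61 (SE, adjusted p = 0.00559), a call that held without any single array. Both BP14A day 4 arrays have low Gapdh 5′ to 3′ differences, -4.66 and -2.99. Their part in this was not tested beyond a fit that left out the arrays under -3, the first BP14A day 4 array among them. In Ck-PGCLCs 1 of 7 members was called between day 2 and day 4 (12.5% of genes), and in BP14A cells 0 of 7 (1.43% of genes).

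Max, the obligate partner of both the MYC and the MGA proteins, was called in 3 comparisons, in each of which Mycn was called too. Dox-treated parental cells read 8.53 and 8.77 and day 2 Ck-PGCLCs 8.59 and 8.73. BP14A cells read 9.70 and 9.76, P14A cells 9.71 and 9.88, P14 cells 9.64 and 9.59, and BP14 cells 9.34 and 9.65. All 8 factor arrays were above all 4 arrays of parental cells and day 2 Ck-PGCLCs. Max rose by 1.14 ± 0.23 in P14A (2.21-fold, limma adjusted p = 0.000876) and by 1.08 in BP14A (2.12-fold, adjusted p = 0.00128) against parental cells, and by 1.07 in BP14A against day 2 Ck-PGCLCs (adjusted p = 0.00163). The differences in P14 (0.96, adjusted p = 0.00374) and BP14 (0.85, adjusted p = 0.00989) passed the adjusted p but not 2-fold. The BP14A calls lay close to that limit: the first dropped to 0.96 without the first parental array, and the second to 0.99 without the first day 2 Ck-PGCLC array.

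In Ck-PGCLCs Max read 9.59 and 9.58 at day 4 and 9.52 and 9.94 at day 6, and in PGCs 9.38 and 10.07. The day 2 to day 4 difference was 0.92 (1.89-fold, limma adjusted p = 0.00555). In BP14A cells it was -0.36 (interval -0.83 to 0.12), and the routes differed by -1.28 ± 0.32 (SE, adjusted p = 0.00952). With the 4 arrays of low Gapdh difference left out, that route difference was -1.20 (adjusted p = 0.0553). For the difference between routes 2 of 7 members were called, Mycn and Max, where 11.8% of tested genes were. L3mbtl2 (-0.62, adjusted p = 0.0201) and Pcgf6 (-0.64, adjusted p = 0.0409) went in the same direction by less than 2-fold.

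Mga, the large scaffold that brings MAX to PRC1.6, was highest in ESCs. It read 8.10 and 8.97 in the earlier ESCs, 8.46 and 8.06 in BP14A ESCs, 7.04 and 6.71 in 48 h EpiLCs, 7.36 and 7.83 in 36 h EpiLCs and 7.42 and 8.19 in epiblast. The 48 h EpiLC arrays were below all ESC arrays, whereas 1 of the epiblast arrays overlapped them. Mga fell by 1.66 ± 0.37 in 48 h EpiLCs (3.15-fold, limma adjusted p = 0.00242), which was -1.22 (adjusted p = 0.062) without the second ESC array. In 36 h EpiLCs the difference was -0.67 (interval -1.45 to 0.11), and in epiblast -0.73 (-1.51 to 0.05). PGCs read 7.35 and 7.68 and were lower than ESCs by 1.02 on the log2 scale (adjusted p = 0.0428, 1 of 7 members called against 19.6% of genes), a call that ended without either PGC array (-0.86, adjusted p = 0.204, and -1.18, adjusted p = 0.068) or without the second ESC array (-0.58, adjusted p = 0.373).

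At day 2 Mga was lowest in the Dox-treated parental cells, at 6.28 and 6.62, next to Ck-PGCLCs at 6.41 and 7.11. It read 8.06 and 7.82 in BP14, 7.31 and 7.80 in P14, 7.16 and 7.71 in P14A and 7.39 and 7.24 in BP14A cells, all above both parental arrays. Mga fell by 1.14 from 36 h EpiLCs to parental cells (limma adjusted p = 0.0305) and rose by 1.49 in BP14 (2.81-fold, adjusted p = 0.00618) and by 1.11 in P14 (adjusted p = 0.0386) against parental cells. The differences in P14A (0.98, interval 0.20 to 1.76) and BP14A (0.87, 0.09 to 1.65) were of similar size and missed the adjusted p. The calls rested on single arrays: the BP14 call ended without the first BP14 array (1.37, adjusted p = 0.0574) or the first parental array (1.32, adjusted p = 0.0655). The P14 call ended without either P14 array (1.35, adjusted p = 0.0581, and 0.86, adjusted p = 0.235) or either parental array (0.94, adjusted p = 0.219, and 1.28, adjusted p = 0.0731). The EpiLC call ended without either parental array (-0.97, adjusted p = 0.187, and -1.32, adjusted p = 0.0619) or the second EpiLC array (-0.91, adjusted p = 0.19). Mga has 4 dimmer probe sets, and with the mean of all its probe sets the changes against parental cells were 0.21 to 0.54 and no Mga call remained.

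Against the Dox-treated parental cells, 2 of 7 members were called in BP14A (13.9% of tested genes), 3 in BP14 (12.8%), 2 in P14A (12.5%) and 2 in P14 (12.9%). Shares of 12.5% to 13.9% correspond to about 1 gene in 7. Between BP14A and day 2 Ck-PGCLCs 2 of 7 were called (12.6% of genes), and between parental cells and EpiLCs 2 of 7 (12.9%). BP14A did not differ by a call from BP14 (0 of 7, 0.329% of genes) or from P14A (0 of 7, 0.0129%), nor day 2 Ck-PGCLCs from parental cells (0 of 7, 3.73%). The count was also 0 of 7 between BP14A and Ck-PGCLCs at day 4 (6.12%), between 48 h EpiLCs and epiblast (4.74%) and between day 6 Ck-PGCLCs and PGCs (7.36%).

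L3mbtl2, a chromatin reader with MBT repeats and a core PRC1.6 subunit, varied little between the arrays of a group. Its residual SD, as moderated by limma over all tested genes, was 0.12, so differences under 2-fold passed the test. It read 9.83 and 10.04 in Dox-treated parental cells and 9.95 and 10.06 in day 2 Ck-PGCLCs. The 36 h EpiLCs read 10.57 and 10.46, near the day 2 factor arrays. BP14A read 10.70 and 10.66, P14A 10.66 and 10.66, P14 10.48 and 10.56, and BP14 10.57 and 10.48, so that no factor array reached down to the parental or cytokine ones. The differences from parental cells were 0.74 (limma adjusted p = 0.000147), 0.72 (0.000211), 0.58 (0.00161) and 0.59 (0.00162) in that order. L3mbtl2 was highest in the Dox-treated ESCs, at 11.0 and 11.21, which was 0.56 above the untreated BP14A ESCs (adjusted p = 0.00326). PGCs were 0.67 below ESCs on the log2 scale (10.16 against 10.83, adjusted p = 0.000263).

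Pcgf6, the subunit that defines PRC1.6 among the variant Polycomb complexes, was also higher in all 4 factor groups than in parental cells and Ck-PGCLCs at day 2. It read 10.11 and 10.26 in parental cells and 10.29 and 10.12 in Ck-PGCLCs, against 10.70 to 11.09 over the 8 factor arrays. It was highest in 36 h EpiLCs, at 11.20 and 10.98. The differences from parental cells were 0.70 in BP14A (limma adjusted p = 0.00124), 0.74 in BP14 (0.000837), 0.58 in P14A (0.00656) and 0.67 in P14 (0.00199). From EpiLCs to parental cells the difference was -0.90 (adjusted p = 0.000119) and to day 2 Ck-PGCLCs -0.89 (adjusted p = 0.00012). None of these reached 2-fold. A second, dimmer Pcgf6 probe set (mean level 5.43, against 10.70) gave differences of the opposite sign in BP14A, BP14 and P14 (-1.60, -2.17 and -1.15), with an SE of 1.89.

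E2f6, the repressor that brings PRC1.6 to E2F sites, did not share this day 2 pattern. It read 9.17 and 9.02 in parental cells, 8.52 and 8.83 in BP14A and 8.47 and 8.67 in P14, so its factor arrays were the lower ones. The P14 difference was -0.53 (interval -0.95 to -0.11, adjusted p = 0.0704). Its larger differences lay between ESCs and the primed state: BP14A ESCs read 8.19 and 8.27 and 36 h EpiLCs 9.14 and 9.09, a difference of 0.89 (1.85-fold, limma adjusted p = 0.00252). In the earlier arrays 48 h EpiLCs stood 0.75 (adjusted p = 0.00946), epiblast 0.67 (adjusted p = 0.0159) and PGCs 0.70 (adjusted p = 0.0107) above ESCs.

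The Dox-treated parental cells thus had the lowest mean of all 16 groups for 5 of the 7 genes (Mycn, Max, Mga, L3mbtl2 and Pcgf6), and day 2 Ck-PGCLCs the second lowest for the same 5. Over the 15497 tested genes, 8.2% had their lowest mean in the parental cells, and 2.9% had it there with day 2 Ck-PGCLCs second. Those groups also differ from the others in streak and mesoderm markers (Mixl1, Eomes, Evx1, Cdx2 and Hoxb1), of which 5 of 5 were above the dim threshold. The mean of these markers was 9.08 and 8.86 on the parental arrays and 9.55 and 9.59 on the day 2 Ck-PGCLC arrays. It was 4.03 and 4.11 in 36 h EpiLCs, and on the 8 day 2 factor arrays it ran from 3.25 to 3.75. The mean of 4 endoderm markers was 6.97 and 7.12 in parental cells against 4.48 and 4.42 in BP14A cells. Germ cell markers averaged 6.06 and 6.13 in parental cells, 8.81 and 8.96 in day 2 Ck-PGCLCs and 10.13 to 10.43 in day 2 factor cells. The part of these markers' cell states in the members' levels was not tested.

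Neighbours in the order of the 16 group means mostly could not be separated. The yardstick was each gene's residual SD, as moderated by limma over all tested genes. Of the 15 steps between neighbours, 12 were smaller than this SD for Myc (0.46), 14 for Mycn (0.43) and 14 for Max (0.23). The count was 15 for Mga (0.37), 14 for E2f6 (0.20), 11 for L3mbtl2 (0.12) and 13 for Pcgf6 (0.15). Over the 16 group means Mycn and Max had the highest correlation of any pair of members (Pearson r = 0.81), then L3mbtl2 and Pcgf6 (0.67), Mga and L3mbtl2 (0.66) and Myc and E2f6 (0.63). These groups share clones, arrays and controls, so the values are a description.

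Among other subunits of PRC1.6 only Yaf2 was called in all 4 factor groups against parental cells. Among 12 tested genes (RING1 proteins, HP1 proteins, DP partners, histone deacetylases, WDR5, the histone methyltransferases Ehmt1 and Ehmt2, and Yaf2), 0 rose and 1 fell in BP14A, BP14 and P14A against parental cells, and 0 rose and 2 fell in P14. The gene that fell in all 4 was Yaf2, which encodes a RING1-binding PRC1 subunit and a paralogue of RYBP. It read 10.30 and 10.40 in parental cells and 10.19 and 10.13 in day 2 Ck-PGCLCs, against 7.18 and 6.94 in BP14A. Yaf2 fell by 3.30 in BP14A (limma adjusted p = 1.12e-08), 2.88 in BP14, 3.44 in P14A and 3.41 in P14. In Ck-PGCLCs it fell by 2.47 from day 2 to day 4 (adjusted p = 8.36e-07). The other gene that fell in P14 was Cbx3, by 2.01 (adjusted p = 0.00938), and leaving out the first P14 array or the second parental array brought the P14 count to 1. Cbx3 read 3.88 and 4.28 in P14, around the dim threshold of 4.05, so the size of its fall is not read. In 36 h EpiLCs against BP14A ESCs 3 rose, namely Tfdp2 (from a mean of 8.54 to 10.14), Yaf2 (by 1.53) and Ehmt1 (by 1.08). The median change of the list in BP14A against parental cells was 0.11, beside 0.05 over all tested genes. Of all tested genes 12.5% to 13.9% were called, in either direction, in the 4 comparisons with parental cells. The share was 14.6% in 36 h EpiLCs against BP14A ESCs.

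Subunits of the other PRC1 complexes changed in both directions. Of 15 tested, 2 rose and 1 fell in BP14A, BP14 and P14 against parental cells, and 2 rose and 2 fell in P14A, with a median of 0.07 in BP14A beside 0.05 over all genes. Over all tested genes the shares called, in either direction, were 12.5% to 13.9%. Pcgf5, the PCGF subunit of another variant complex, read 7.56 and 7.48 in parental cells and 9.87 and 9.51 in BP14A and rose by 2.17 (limma adjusted p = 1.74e-07), 2.18 in BP14, 1.78 in P14A and 2.04 in P14. Unlike Mycn or Max, Pcgf5 was already at 9.52 and 9.16 in day 2 Ck-PGCLCs, and BP14A differed from them by 0.35 (adjusted p = 0.284). It also rose by 2.82 in day 6 Ck-PGCLCs against 48 h EpiLCs and by 2.31 in PGCs against epiblast. Cbx7, a chromodomain subunit of canonical PRC1, rose by 1.30, 1.10, 1.52 and 1.41 in the same order of groups, and its BP14 call ended without the second BP14 array (0.75) or the first parental array (0.97). With the mean of its probe sets in place of the brightest, the 4 Cbx7 changes were 0.59 to 0.77 and none reached 2-fold. Phc2, a Polyhomeotic subunit, fell by 1.30, 1.83, 1.81 and 1.89. The count of falls in P14 was 2 without the second parental array.

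Among 9 other genes of the MAX network, 1 fell in each of the 4 factor groups, namely Mycl, the MYC paralogue. It read 9.03 and 8.62 in parental cells, 8.44 and 8.71 in day 2 Ck-PGCLCs and 3.85 and 5.10 in BP14A, so Mycl and Mycn lay on opposite sides of the same comparison. Mycl fell by 4.35 in BP14A (limma adjusted p = 4.58e-05), 4.34 in BP14, 3.22 in P14A and 3.40 in P14, but with the mean of its probe sets the BP14A change was -0.92 (adjusted p = 0.159) and none of the 4 was called. The median of the list was -0.18 in BP14A, beside 0.05. Of 7 E2F family genes 0 rose and 0 fell in any of the 4 factor groups, with a median of -0.25 in BP14A. Of all tested genes 12.5% to 13.9% were called, in either direction, in these groups against parental cells. Leaving out any single array moved the counts of these lists in these 4 comparisons by at most 1.

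Germline genes on the list held by MGA, MAX, E2F6 or PCGF6 gave many calls in the same comparisons. Of 25 listed, 24 were measured and 21 tested, which needed a mean at the dim threshold in at least 1 group. Against parental cells 15 rose in BP14 and 13 in each of BP14A, P14A and P14, with median changes of 1.90, 2.10, 1.78 and 1.75 in that order, beside 0.03 to 0.05 over all tested genes. In P14 1 gene fell, the piRNA pathway gene Tdrkh (-1.36), and none did without the first P14 array. The same list had 13 falls from 36 h EpiLCs to parental cells (median -2.29) and 15 to day 2 Ck-PGCLCs (median -1.86). Against the same EpiLCs, 1 rose and 5 fell in BP14A day 2 cells (median -0.27, beside -0.02 over all tested genes). The rises against parental cells are thus read from a control in which the list had fallen below EpiLCs. Of all tested genes 12.9% were called, in either direction, in parental cells against EpiLCs. In day 2 Ck-PGCLCs against EpiLCs 6.06% were called lower, and in BP14A day 2 cells against EpiLCs 5.36%. Over all tested genes the shares that rose were 6.39%, 6.63%, 5.65% and 6.34% in these 4 comparisons with parental cells. The list was chosen with earlier results of these data known.

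Ddx4 read 5.66 and 5.89 in parental cells, 6.29 and 6.24 in day 2 Ck-PGCLCs and 9.01 and 8.56 in BP14A cells, and rose by 3.01 in BP14A against parental cells (limma adjusted p = 2.61e-09). Hormad1 was dim in parental cells, at 1.94 and 1.96, and read 7.81 and 5.83 in BP14A, and Sycp3 went from 4.33 and 4.65 to 8.01 and 6.30 (change 2.67). Dazl, an RNA-binding protein of germ cells, went from 1.12 and 0.12 to 8.74 and 6.80. For each of these 4 genes both BP14A arrays lay above both parental arrays. The share of all tested genes separated in this way was not counted, and Hormad1 and Sycp3 were picked after values were seen. The separation is thus a description of these 4 genes only. The promoters of Ddx4, Hormad1 and Sycp3, printed above, hold both kinds of motif. Mael, a piRNA pathway gene, was high in 36 h EpiLCs, at 9.46 and 9.29, and low in parental cells, at 3.28 and 3.29 (limma adjusted p = 1.53e-10). The parental levels of Hormad1, Dazl and Mael were below the dim threshold, so the sizes of their changes are not read.

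The median level of the 21 germline genes was lowest in parental cells (3.38) and day 2 Ck-PGCLCs (3.82), the same groups that were lowest for Mycn, Max, Mga, L3mbtl2 and Pcgf6. In each of those groups 12 of the 21 had a mean below the dim threshold, so the sizes of the median changes against them are uncertain. It was 5.20 and 5.24 in ESCs, 6.07 in 36 h EpiLCs, 6.94 in Dox-treated ESCs and 7.13 in day 6 Ck-PGCLCs. Over the 16 group means the correlation with the mean of this list was 0.68 for Pcgf6, 0.54 for L3mbtl2, 0.45 for Mga, 0.39 for Mycn, 0.34 for Max, 0.17 for Myc and 0.06 for E2f6. None of the 7 was negative. The points share clones, arrays and the streak marker difference given above, so the correlations are a description. In the ESC state 13 of the 21 rose in BP14A ESCs after 2 days of Dox (median 2.09), while 0 of 7 members were called (9.41% of genes). Among them Dazl rose by 3.35, from 7.05 and 6.84 to 10.30 and 10.28, whereas Smc1b and Slc25a31 rose from untreated levels below the dim threshold (means of 2.55 and 3.62).

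**Figure D4:**
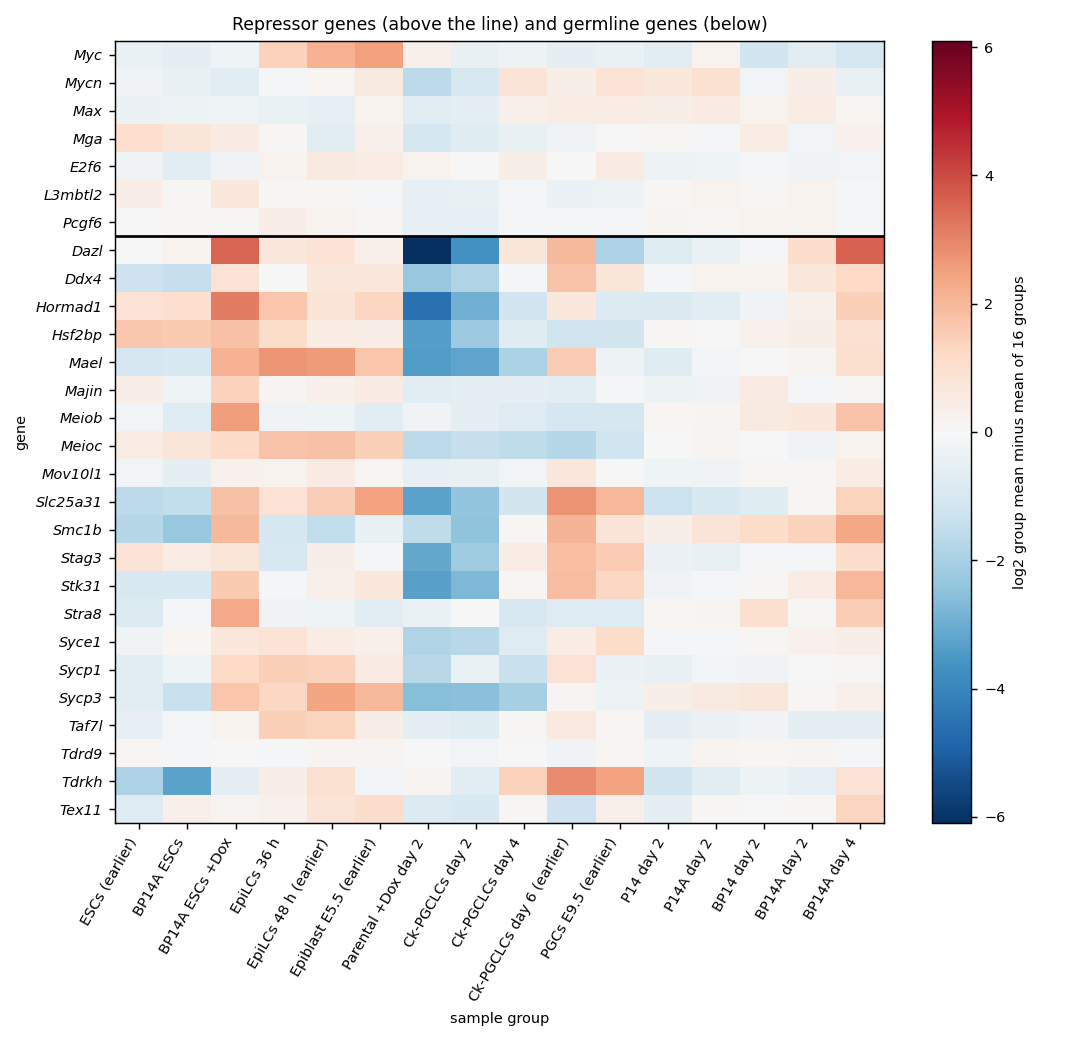
Colour shows the group mean minus the mean of 16 group means (log2) for the 7 genes (above the line) and the 21 tested germline genes (below it), side by side for the 16 groups. Dox-treated parental cells and day 2 Ck-PGCLCs are low both for most germline genes and for Mycn, Max, Mga, L3mbtl2 and Pcgf6.

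Genes that MYC is known to raise gave few calls. Of 24 tested MYC target genes, which serve ribosome production, nucleotide and polyamine synthesis and growth, 0 rose and 0 fell in 36 h EpiLCs (median 0.20), in 48 h EpiLCs (0.24) and in epiblast (0.27), each against ESCs, while Myc rose in all 3. The medians over all tested genes were 0.05, 0.02 and -0.03 in that order. Of all tested genes 14.6%, 14.4% and 17.0% were called, in either direction, in these comparisons. Without the first ESC array 1 rose in 48 h EpiLCs and in epiblast, and without the second epiblast array 1 rose in epiblast. In PGCs against epiblast 1 fell, Pa2g4 (-1.81), a growth-associated nucleolar protein, and in day 6 Ck-PGCLCs against 48 h EpiLCs 2 fell, Ldha (-4.01), lactate dehydrogenase, and Pa2g4 (-1.69). With the mean of their probe sets the Pa2g4 changes were -0.96 and -0.89 and not called. Of all tested genes 6.90% and 9.38% were called lower in the same comparisons. Against parental cells 1 fell in each of the 4 factor groups, Ldha again, by 3.24, 2.29, 1.93 and 2.66 in BP14A, BP14, P14A and P14. Srm, spermidine synthase, fell by 1.26 from EpiLCs to day 2 Ck-PGCLCs and was 1.21 higher in BP14A than in day 2 Ck-PGCLCs.

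By correlation over the 16 group means, the tested genes nearest to Myc were Rhot2 (r = 0.946), Ecrg4 (0.923) and Fam131b (0.919). Ecrg4 and Fam131b were above the dim threshold in 3 of 16 groups only, the EpiLCs and epiblast in which Myc is high, and so were tested only because of those groups. Nearest to Mycn were Prpf40b (0.845), Syce2 (0.845) and Slc23a2 (0.834), and nearest to Max were Fgd1 (0.930), Wee1 (0.915) and Lnx1 (0.895). Mga was nearest to Tert (0.895), Rlf (0.886) and Chek1 (0.877), and E2f6 to Mfsd2a (0.906), Ubash3b (0.902) and Sdc1 (0.900). L3mbtl2 was nearest to Pipox (0.889), Pias2 (0.888) and Cpne9 (0.875), and Mfsd2a and Cpne9 were above the dim threshold in 13 and 12 of the 16 groups. The nearest genes to Pcgf6 were Srm (0.941), Nol9 (0.928) and Dnajc2 (0.918), of which Srm is on the MYC target list. The best of 15497 genes is always close, so these are the genes of most similar pattern and no more.

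In 12 of 16 groups the array with the higher Gapdh 5′ to 3′ difference also read higher for Myc, in 14 of 16 for Mycn and in 12 of 16 for Max. For Mga the count was 10, for L3mbtl2 8, for E2f6 7 and for Pcgf6 6 of 16. In 36 h EpiLCs that array read higher by 1.72 for Myc and 1.21 for Mycn, in BP14 cells by 1.37 and 1.58, and in Dox-treated ESCs by 0.87 and 1.21. In BP14A day 4 cells it read higher by 0.59 and 0.81, and in BP14A ESCs by 0.02 and 0.31. With the 4 arrays of Gapdh difference under -3 left out, 21 of 27 member calls were kept. The Myc and Mga calls in BP14 against parental cells were among those lost (Myc -0.79, adjusted p = 0.123, Mga 1.37, adjusted p = 0.0871, by limma), as were those of Mga in parental cells against EpiLCs (-1.38, adjusted p = 0.0738), in P14 against parental cells (1.11, adjusted p = 0.0658) and in PGCs against ESCs (-1.02, adjusted p = 0.0691).

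**Figure D5:**
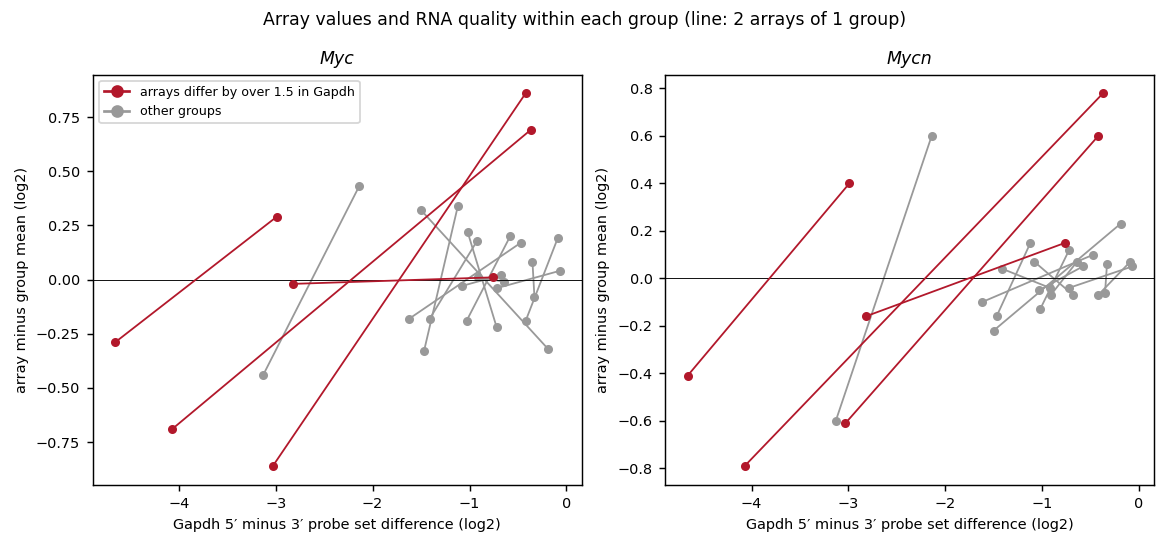
Gapdh 5′ minus 3′ log2 difference of each array (x axis) against that array's log2 level minus its group mean (y axis) for Myc and Mycn, with lines joining the arrays of a group and red where the arrays' Gapdh differences are over 1.5 apart. In all 4 red groups (36 h EpiLCs, BP14, BP14A day 4 and BP14A ESCs) the array with the lower Gapdh difference is also the lower one for both genes.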

How the data were processed

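The deposited values are signals of Affymetrix 3′ arrays on a log2 scale, as read from the values (0 to 14.59). How the authors scanned, summarised and normalized the arrays is not given in the sources used here. Labels describe PCR-amplified cDNA. Array medians ran from 4.62 to 4.79, and 2 arrays a group limit the precision.

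From these values 64 control probe sets were left out and the arrays quantile-normalized. Of 45101 probe sets, 34958 had 1 symbol in GEO's platform annotation (932 had several), and 34754 of those matched RefSeq. The brightest probe set stood for each of 18193 genes, and 15497 genes with a group mean of at least the 40th percentile were tested with limma 3.58.1 in R 4.3.3 (1 fit of 16 groups, 16 residual degrees of freedom, Benjamini-Hochberg adjustment over all tested genes in each comparison). The code was tested on simulated data. A call needed an adjusted p under 0.05 and a 2-fold change. Figures were drawn with matplotlib 3.10.9.

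The members and the gene and marker lists (other PRC1.6 subunits, other PRC1 subunits, other MAX network genes, E2F family, germline genes, MYC target genes) were chosen with earlier results of these data known. The text names all members, up to 3 called genes with the largest rise and fall of a list in each comparison, the 3 genes nearest in pattern to each member, and marker genes. Ring, histone deacetylase and other list genes are named as groups only. Hormad1, Sycp3, Cbx7 and the Yaf2 and Mycl array values were picked for display after values were seen. Promoters come from RefSeq (GRCm38.p6, 32851 promoters of 27025 genes). Same-numbered arrays of the earlier set deviated together (correlations of 0.24 to 0.52 over 10 pairs of groups), so their numbers pair the samples by the data, with no label giving a source for the pairing. Alternatives were the deposited values, median centring, other probe sets, other filters and thresholds, limma's trend and robust options, a replicate block, the new or earlier arrays alone, each array left out and, chosen after seeing the data, the replicate block within the earlier arrays and the 4 arrays of low Gapdh difference left out.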

Additional observations from a re-analysis of the deposited data

Results flagged for a closer look

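The change from day 2 to day 4 differed between BP14A cells and Ck-PGCLCs for Mycn, by -2.62 (SE 0.61, limma adjusted p = 0.00559). Mycn went from 11.18 to 10.30 in BP14A cells and from 9.80 to 11.54 in Ck-PGCLCs, with 2 arrays in each mean. The same difference for Max was -1.28 (SE 0.32, limma adjusted p = 0.00952), with means of 9.73 and 9.37 in BP14A cells and of 8.66 and 9.59 in Ck-PGCLCs. The BP14A day 4 arrays have Gapdh 5′ to 3′ differences of -4.66 and -2.99, and the BP14A and cytokine cells are of different clones. With the 4 arrays of low Gapdh difference left out, the second BP14A day 4 array stood alone and the Max difference was -1.20. With the mean of all its probe sets the Mycn difference was -1.89 (limma adjusted p = 0.18). On a dimmer Mycn probe set it was -1.38 (limma adjusted p = 0.701). The part of the Gapdh difference beyond that fit, and that of the clones, was not tested.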

How the results depend on the processing

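Over 27 calls of a member, all 27 were kept with a filter at the 60th percentile, with limma's trend and robust options and with a replicate block. Dropping the fold limit cannot end a call, so that setting says nothing about the 27. Median centring kept 25, the deposited values 23, an adjusted p under 0.01 20, and the mean of a gene's probe sets 14 (the Mycn and Mga calls were lost). Leaving out 1 array at a time kept a call in 80 of 116 fits. Of 23 values of these calls on a member's other probe sets, 0 kept the call, 16 lost it and 7 turned sign. On the new arrays the pairing by replicate number was mixed. Deviations of same-numbered arrays correlated from -0.22 to 0.48, with 25 of 55 pairs of groups over 0.1, so some groups deviated together. With the replicate block on all arrays, or within the earlier arrays alone, the count stayed at 2 of 7 in BP14A against parental cells and no call of a member changed.

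The number of members called moved by over 1.5 times as follows. With the deposited values it was 1 in parental cells against EpiLCs, 2 in BP14A day 2 against EpiLCs, 1 in P14 against parental cells, 1 in BP14A against day 2 Ck-PGCLCs, 2 in day 6 Ck-PGCLCs against EpiLCs and 0 in PGCs against ESCs. With median centring it was 1 in parental cells against EpiLCs and 2 in BP14A against EpiLCs. With the mean of probe sets it was 0 in parental cells against EpiLCs, 0 in Ck-PGCLCs from day 2 to day 4, 1 in each of BP14A, BP14 and P14A and 0 in P14 against parental cells, 1 in BP14A against day 2 Ck-PGCLCs, 1 in 48 h EpiLCs against ESCs, 0 in PGCs against ESCs and 1 for the route difference. With no filter it was 0 in PGCs against ESCs. With an adjusted p under 0.01 it was 0 in parental cells against EpiLCs and in PGCs against ESCs, and 1 in BP14 and in P14 against parental cells and in BP14A against day 2 Ck-PGCLCs. With no fold limit it was 2 in 36 h EpiLCs against ESCs, 4 in parental cells, 3 in day 2 and 3 in day 4 Ck-PGCLCs and 2 in day 2 and 2 in day 4 BP14A cells against EpiLCs, 2 in Ck-PGCLCs from day 2 to day 4, 4, 6, 4 and 5 in BP14A, BP14, P14A and P14 against parental cells, 4 in BP14A against day 2 Ck-PGCLCs, 1 in Dox-treated ESCs, 3 in epiblast against ESCs, 3 in day 6 Ck-PGCLCs, 4 in PGCs against ESCs and 4 for the route difference. With the array set alone it was 1 in BP14A against day 2 Ck-PGCLCs. Without the low-Gapdh arrays it was 2 in day 2 Ck-PGCLCs against EpiLCs, 1 in P14 against parental cells and 1 for the route difference, and by less in BP14 (2) and BP14A (3) against parental cells.

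Leaving out 1 array gave 0 to 1 in 36 h EpiLCs against ESCs, 0 to 3 in parental cells, 0 to 2 in day 2 Ck-PGCLCs, 0 to 1 in day 4 Ck-PGCLCs and 0 to 1 in BP14A day 2 against EpiLCs. It gave 0 to 1 between Ck-PGCLC days, 1 to 2 in BP14A, 0 to 2 in BP14 and 1 to 2 in P14 against parental cells, 0 to 1 in BP14A against day 2 Ck-PGCLCs, 1 to 2 in 48 h EpiLCs against ESCs, 1 to 2 in day 6 Ck-PGCLCs and 0 to 1 in PGCs against ESCs. The causes of these changes were not tested.

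Some changes turned sign. With the mean of probe sets Pcgf6 was 0.54 (parental) and 0.25 (day 4 Ck-PGCLCs) against EpiLCs, and -0.81, -0.56 and -0.40 in BP14A, BP14 and P14 against parental cells. On its second probe set it was 1.42, 0.13, -1.60, -2.17 and -1.15 in the same order. On dimmer probe sets Mga was 0.08 in parental cells against EpiLCs, -0.11, -0.01 and -0.02 in BP14, -0.06 in P14A and -0.22 in BP14A against parental cells, 0.03 in 36 h EpiLCs and 0.13 in epiblast against ESCs. Mycn was -0.01 in day 4 Ck-PGCLCs against EpiLCs, -0.30 in BP14A and -0.13 in P14 against parental cells, and -0.23 in BP14A against day 2 Ck-PGCLCs. E2f6 was -0.00 in 36 h EpiLCs against ESCs. Of the 9 other probe sets, 3 were never above the dim threshold, and signal over background limits what they can show.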
